A study of Homo sapiens with 18 samples.

Results

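The genes described are those of the proteasome subunits, taken as every row of the deposited expression table whose symbol was PSMA, PSMB, PSMC or PSMD followed by a number. The rule found 39 genes of 59385 in the table: 8 genes of the alpha ring (PSMA), 8 of the constitutive beta ring (PSMB1 to PSMB7 and PSMB11), the 3 inducible beta subunits PSMB8 to PSMB10, 6 ATPases (PSMC) and 14 non-ATPases (PSMD). They were followed in LNCaP, an established human prostate cancer cell line, grown with 10% fetal bovine serum. Cells received one of 3 siRNAs with the lipid reagent RNAiMAX: the control siNC, siPDIA1 against PDIA1 (gene symbol P4HB) or siPDIA5 against PDIA5. RNA was collected at 48 h or 96 h, which gave 6 groups of 3 libraries. The labels do not tell separate cultures from repeat libraries of 1 culture, so each p-value refers only to variation among these 18 samples, and that variation may be technical. No siRNA sequence is listed, and nothing says if an siRNA was 1 duplex or a mix.

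The proteasome is the large protease that degrades proteins tagged with ubiquitin. Its 20S core is a barrel of alpha rings that gate the entrance and beta rings that hold the cutting sites, borne by PSMB5, PSMB6 and PSMB7. The 19S cap is made of ATPases that unfold the substrate and push it into the core, and of non-ATPases that bind and remove the ubiquitin chain. Interferon-gamma and leukocytes bring in PSMB8, PSMB9 and PSMB10, which replace PSMB5, PSMB6 and PSMB7 in the immunoproteasome. When proteasome activity falls, the transcription factor NFE2L1 raises subunit genes together through antioxidant response elements in their promoters. NFE2L1 is made in the endoplasmic reticulum (ER), the compartment in which both protein disulphide isomerases PDIA1 and PDIA5 work.

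To show that element in the subunit genes, the 250 bases before each RefSeq start (GRCh38.p14) were searched on both strands for TGACNNNGC, a core of the antioxidant response element. RefSeq starts were matched for 34 of the 39 genes, and 8 genes (23.5%) held the motif before at least 1 of their listed starts, against 13.2% of 27305 genes. The 9 matches are printed 5′ to 3′ along the strand that holds the motif, with the motif in capitals and 10 bases on each side; the PSMB9 and PSMC5 matches and the first PSMD9 match lie on the strand opposite to the gene.
PSMA4, chr15:78540650-78540678, plus strand: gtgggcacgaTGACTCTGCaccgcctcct
PSMB3, chr17:38752627-38752655, plus strand: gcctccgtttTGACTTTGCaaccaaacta
PSMB9, chr6:32854034-32854062, minus strand: ccgagacaagTGACGAGGCagccccgccc
PSMC5, chr17:63827654-63827682, minus strand: agggcggcgcTGACACAGCagatccggtc
PSMD3, chr17:39980760-39980788, plus strand: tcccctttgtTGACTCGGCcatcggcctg
PSMD5, chr9:120843038-120843066, minus strand: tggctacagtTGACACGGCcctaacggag
PSMD9, chr12:121888631-121888659, minus strand: gcgcctgtggTGACCCGGCaggagtagcg
PSMD9, chr12:121888678-121888706, plus strand: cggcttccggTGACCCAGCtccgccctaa
PSMD12, chr17:67366724-67366752, minus strand: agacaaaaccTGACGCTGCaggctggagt

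A match is a description of these letters and not a shown binding site. The variant TGAGNNNGC was present in 8 of the 34 genes (23.5%, against 17.7% of all genes), the ETS core CCGGAA in 14 (41.2%, against 17.2%) and CCAAT in 17 (50%, against 37.0%). None of the 9 TGACNNNGC matches overlapped a match of another of these motifs. The promoters of PSMA5 and PSMB3, the core genes with the largest fall at 96 h with siPDIA5 and siPDIA1, are printed whole for comparison, with TGACNNNGC and TGAGNNNGC matches of either strand in capitals. PSMA5 held 3 matches to TGAGNNNGC and none to TGACNNNGC, and PSMB3 held 1 match to TGACNNNGC and none to TGAGNNNGC.
PSMA5, chr1:109426449-109426698, minus strand: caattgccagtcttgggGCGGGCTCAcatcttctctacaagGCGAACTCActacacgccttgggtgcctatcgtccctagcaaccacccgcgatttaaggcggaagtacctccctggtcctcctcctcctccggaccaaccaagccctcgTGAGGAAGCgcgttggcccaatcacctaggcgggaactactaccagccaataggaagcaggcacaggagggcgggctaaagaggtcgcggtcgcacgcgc
PSMB3, chr17:38752491-38752740, plus strand: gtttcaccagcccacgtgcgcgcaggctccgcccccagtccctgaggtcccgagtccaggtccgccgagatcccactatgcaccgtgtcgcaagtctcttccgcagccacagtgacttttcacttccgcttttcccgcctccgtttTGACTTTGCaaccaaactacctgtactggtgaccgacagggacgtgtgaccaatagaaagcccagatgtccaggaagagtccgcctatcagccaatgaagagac

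The libraries held an estimated 29.2 to 43.9 M reads on genes. P4HB fell from a mean of 66.9 to 5.73 RPKM (reads scaled to the length of the gene and the depth of the library) with siPDIA1 at 48 h and from 68.9 to 9.16 at 96 h. PDIA5 fell from 14.0 to 1.55 with siPDIA5 at 48 h and from 14.9 to 1.40 at 96 h, and P4HB rose to 129 and 124 RPKM with siPDIA5 (log2 fold changes of 0.94 and 0.84). Of 7 leukocyte markers, the sum was at most 0.473 RPKM in any library and CD3E was at 0 in all 18, while the luminal prostate markers KLK3, KRT8 and KRT18 were at 72.3 RPKM or more in every library. Summed VWF, PECAM1 and CDH5 (endothelial markers, almost all of it VWF) was 1.39 to 1.57 RPKM in siNC at 96 h, 2.91 to 3.28 with siPDIA1 and 2.12 to 2.702 with siPDIA5. The sum of 6 luminal markers was 736 to 819 RPKM in siNC at 96 h and 1040.0 to 1075 with siPDIA5. Within it, mean KLK3 was 291 RPKM in siNC, 602 with siPDIA5 and 350.4 with siPDIA1. SLC45A3 of the same list went the other way (mean 153 in siNC at 96 h, 37.8 with siPDIA5 and 18.02 with siPDIA1), as did TMPRSS2 (69.6, 52.0 and 56.2). The sum of 3 basal markers was 0 to 0.110 in siNC at 96 h and 0.379 to 0.679 with siPDIA1; the part of these markers in the results was not tested. In bulk RNA, fewer cells of a kind and less RNA per cell cannot be told apart.

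In the control libraries the constitutive core was read at high levels, and the inducible subunits were near the floor. Leaving out genes with at least 50% of their coding bases in exons of another gene on the same strand, mean RPKM in siNC at 48 h ran from 43.6 (PSMB2) to 168 (PSMB5) in the 7 measured genes of the beta ring, with a median of 106. It ran from 19.9 (PSMA5) to 149.6 (PSMA7) in 4 genes of the alpha ring, with a median of 28.2. The ATPases ran from 7.48 (PSMC6) to 78.4 (PSMC3), with a median of 24.0, and 13 non-ATPases from 4.52 (PSMD5) to 118 (PSMD8), with a median of 21.8. So genes whose proteins sit in 1 complex differed widely in RPKM within each class.

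**Figure D1:**
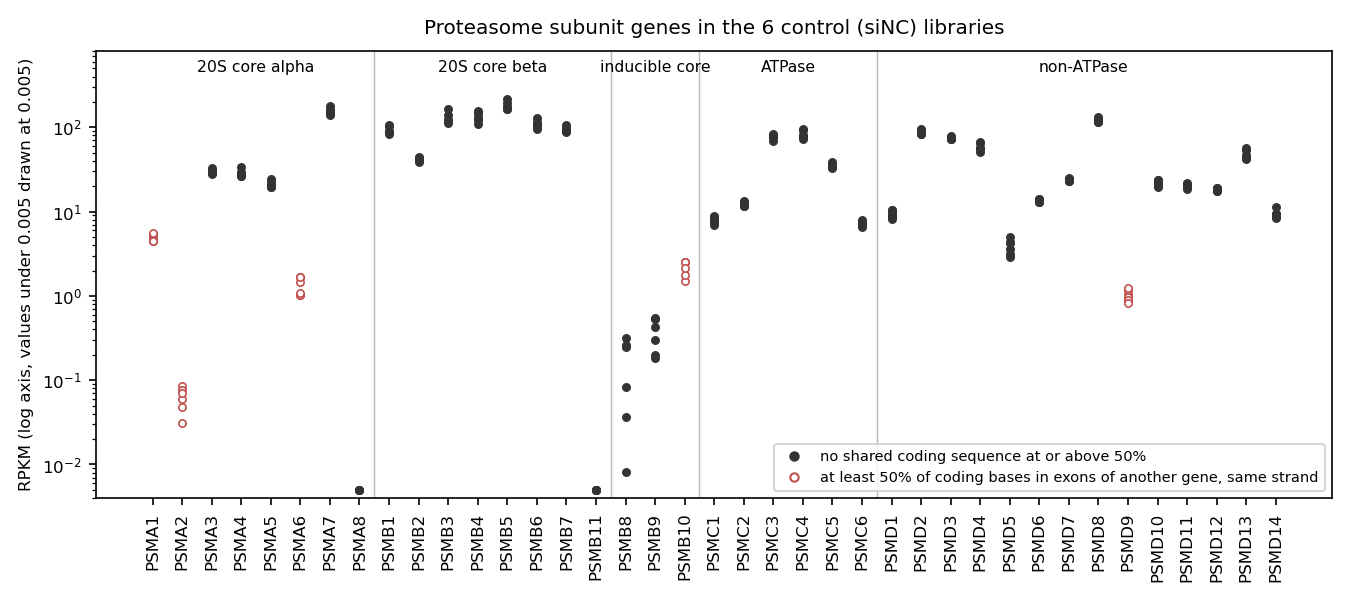
RPKM on a log axis of the 39 proteasome subunit genes in the 6 siNC libraries (48 h and 96 h together), grouped by class, 1 point per library. Open red points are the 5 genes with at least 50% of their coding bases in exons of another gene on the same strand; they lie below most of the other genes, and PSMA8 and PSMB11 are at 0 in all 6 (values under 0.005 are drawn at 0.005).

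The 5 genes with shared coding bases were not in the ranges above and read below most of the other genes. For 5 genes, at least 50% of the coding bases lie in exons of a second gene on the same strand in GENCODE 29: PSMA2 (97.1%), PSMA1 (88.6%), PSMA6 (70.4%), PSMD9 (58.7%) and PSMB10 (58.3%). Their mean RPKM over the 18 libraries was 0.0770 to 4.91 (median 1.63), against 4.85 to 166 (median 37.6) in the 30 other genes, leaving out PSMA8, PSMB8, PSMB9 and PSMB11. PSMB10 (2.69) is inducible like PSMB8 and PSMB9, so it differs from the 30 in this too. How reads matching more than 1 gene were counted is not stated, so the levels and differences of these 5 genes are uncertain. The same holds for PSMC1, with 47.7% of its coding bases opposite to exons of NRDE2, since the strand setting of the counting is not given either.

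PSMA8, the alpha subunit of the testis, was at 0 in all 18 libraries. PSMB11, the beta subunit of the thymus, was above 0 in 1 library (0.0393 RPKM, siPDIA1 at 96 h). Together with PSMA2, PSMB8 and PSMB9 they had a mean under 1 RPKM and were not tested, which left 34 of the 39 genes among the 11685 genes tested.

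With siPDIA1 at 48 h, 6 subunit genes fell and 1 rose of 34 tested (20.6%), against 33.4% of all tested genes called in either direction (16.0% higher, 17.4% lower). The genes that fell were the beta subunit PSMB3, the ATPases PSMC1 and PSMC4, and the non-ATPases PSMD3, PSMD6 and PSMD12, and the gene that rose was PSMD5. The PSMC1 call was lost under 9 of 14 alternatives. The median log2 fold change of the 34 genes was -0.07, against -0.01 over all tested genes. Of the 34, 26 (76.5%) lay below 0, against 51.9% of all tested genes. The shares below 0 were 73.5% with siPDIA1 at 96 h, 47.1% with siPDIA5 at 48 h and 64.7% with siPDIA5 at 96 h. Beside them stood 54.0%, 61.8% and 56.4% of all tested genes. Calls are at an adjusted p under 0.05 (limma on log2(RPKM + 1), Benjamini-Hochberg over all tested genes), and a fold change on this scale understates that of low genes. With quantile normalization the split was 3 higher and 5 lower, beside 16.8% of all tested genes higher and 17.1% lower.

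At 96 h with siPDIA1, 13 subunit genes fell and 2 rose (44.1%), against 45.3% of all tested genes called (20.1% higher, 25.2% lower). Those that fell were 4 of 13 tested genes of the constitutive core (PSMA5, PSMB3, PSMB5, PSMB6), 1 of 6 ATPases (PSMC4) and 8 of 14 non-ATPases (PSMD2, PSMD3, PSMD6, PSMD8, PSMD10, PSMD11, PSMD12, PSMD13). PSMD5 and PSMD7 rose. The PSMD10 call was lost under 10 of 14 alternatives and the PSMD7 call under 8. The share of subunit genes that fell was 38.2%, and the median was -0.09, against -0.03 over all tested genes. With quantile normalization 4 rose and 11 fell, beside 22.7% of all tested genes higher and 23.3% lower, and the median of the members was -0.03.

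With siPDIA5 at 48 h, 5 subunit genes fell (PSMA1, PSMA5, PSMB6, PSMD10, PSMD13) and 3 rose (PSMD2, PSMD5, PSMD11), 23.5% of the 34, against 45.8% of all tested genes called (16.6% higher, 29.2% lower). The median was 0.01, against -0.09 over all tested genes. This split turned with the scaling: after median centring of each library, which moved the median of all tested genes from -0.09 to 0.01, 9 members rose (PSMA3, PSMB10, PSMD1, PSMD2, PSMD3, PSMD5, PSMD7, PSMD8, PSMD11) and only PSMA5 fell. Of all tested genes, 23.3% were then higher and 19.2% lower. With quantile normalization 6 rose and 5 fell, beside 20.8% and 21.3% of all tested genes.

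At 96 h with siPDIA5, 14 subunit genes fell and 4 rose (52.9%), against 51.1% of all tested genes called (20.8% higher, 30.3% lower). The genes that fell were PSMA4, PSMA5 and PSMA7 of the alpha ring, PSMB2, PSMB3, PSMB5 and PSMB6 of the beta ring, the ATPase PSMC4, and the non-ATPases PSMD2, PSMD3, PSMD6, PSMD10, PSMD12 and PSMD13. PSMB10, PSMD5, PSMA1 and PSMD7 rose. The calls were lost under 6 of 14 alternatives for PSMA7 and 10 of 14 for PSMD10, and for PSMD3 with quantile normalization (adjusted p 0.364). The share that fell was 41.2%, and the median was -0.09, against -0.06 over all tested genes. With quantile normalization 6 rose and 10 fell, beside 24.1% of all tested genes higher and 27.2% lower.

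At each time both siRNAs were compared with the same 3 siNC libraries, so the values of a gene in the 2 comparisons are not independent and are given side by side. Of the 34 genes, 13 (38.2%) were called in none of the 4 comparisons, against 24.0% of all tested genes: PSMA3, PSMA6, PSMB1, PSMB4, PSMB7, PSMC2, PSMC3, PSMC5, PSMC6, PSMD1, PSMD4, PSMD9 and PSMD14. PSMD5 was called in all 4 (2.94%, against 14.4% of all tested genes), and 10 genes in 3 (29.4%, against 16.7%). Of the 7 tested genes with TGACNNNGC before a start, PSMB3, PSMD3 and PSMD12 were lower in 3 of the 4 comparisons, PSMA4 was lower with siPDIA5 at 96 h, PSMD5 was higher in all 4, and PSMC5 and PSMD9 were called in none. Changes were small: apart from PSMB10, PSMD5 and PSMA5 no called gene moved by more than 0.42 on the log2 scale in size.

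**Figure D2:**
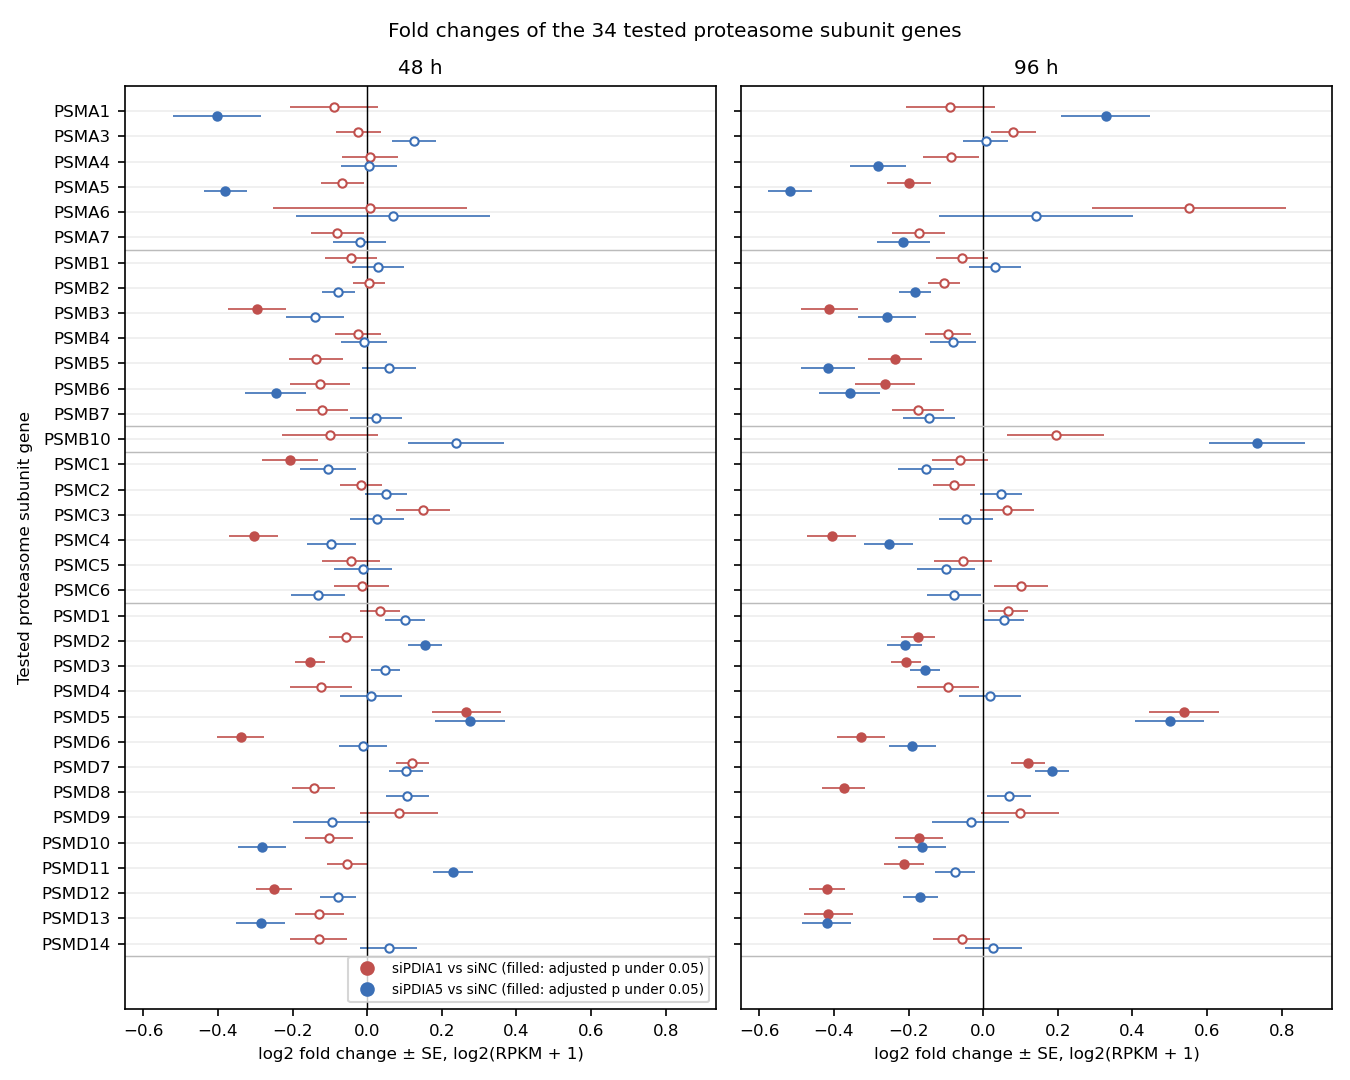
Log2 fold change against siNC with its SE from limma (x axis, on the log2(RPKM + 1) scale) for the 34 tested proteasome subunit genes at 48 h and 96 h. Filled points passed an adjusted p of 0.05; most filled points lie below 0 at 96 h, and PSMD5 lies above 0 in all 4 comparisons.

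PSMB3, a beta subunit with no cutting site, was at 123, 112 and 118 RPKM in siNC at 48 h, 95.3, 95.5 and 96.0 with siPDIA1, and 101, 108 and 111 with siPDIA5. The 96 h levels were 165, 123 and 141 in siNC, 104, 113 and 103 with siPDIA1, and 118, 116 and 121 with siPDIA5. All siPDIA1 and siPDIA5 libraries lay below all siNC libraries of their time. PSMB3 fell with siPDIA1 by 0.30 (SE 0.08) at 48 h and 0.41 (SE 0.08) at 96 h on the log2 scale (adjusted p 0.00756 and 0.000413, limma), and with siPDIA5 by 0.26 (SE 0.08) at 96 h (adjusted p 0.0107). Its value with siPDIA5 at 48 h was -0.14 (adjusted p 0.156). The 96 h siPDIA5 call was lost without siNC replicate 1 (adjusted p 0.0577) or with only those groups in the fit (0.0634).

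PSMC4, an ATPase of the ring that unfolds substrates, was at 81.3, 73.5 and 76.2 RPKM in siNC at 48 h, 61.3, 63.4 and 61.7 with siPDIA1, and 69.2, 70.5 and 76.0 with siPDIA5. At 96 h the values were 95.0, 78.9 and 91.9 in siNC, 70.8, 62.5 and 66.3 with siPDIA1, and 72.6, 77.1 and 72.2 with siPDIA5. The siPDIA1 libraries lay below the siNC libraries at both times, and the siPDIA5 libraries overlapped them at 48 h. The log2 fold changes were -0.30 and -0.41 with siPDIA1 at 48 h and 96 h (SE 0.07, adjusted p 0.00202 and 0.000114, limma). With siPDIA5 they were -0.10 (adjusted p 0.25) and -0.25 (adjusted p 0.00423). PSMC4 was the ATPase that fell at 96 h with either siRNA; PSMC2, PSMC3, PSMC5 and PSMC6 passed no comparison with siNC, with values from -0.13 to 0.15.

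Among the non-ATPases, PSMD12, a subunit of the lid, was at 17.6, 19.2 and 18.6 RPKM in siNC at 48 h and at 15.2, 15.5 and 15.4 with siPDIA1. At 96 h it was at 17.4, 19.0 and 18.4 in siNC, 12.8, 13.6 and 13.8 with siPDIA1, and 16.6, 16.3 and 15.5 with siPDIA5. No siPDIA1 library overlapped a siNC library, and at 96 h all 3 siPDIA5 libraries lay between those of siPDIA1 and siNC. PSMD12 fell by 0.25 (SE 0.05) and 0.42 (SE 0.05) with siPDIA1 (adjusted p 0.000788 and 3.35e-06, limma) and by 0.17 with siPDIA5 at 96 h (adjusted p 0.00776, or 0.0532 with quantile normalization and 0.0593 with only those groups in the fit). PSMD6, another subunit of the lid, fell by 0.34 and 0.33 with siPDIA1 at 48 h and 96 h and by 0.19 with siPDIA5 at 96 h (adjusted p 0.000653, 0.000566 and 0.0205); the last call was lost under 7 of 14 alternatives.

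PSMD13, also of the lid, was at 42.4, 42.9 and 42.8 RPKM in siNC at 48 h, 38.1, 40.0 and 38.9 with siPDIA1, and 32.8, 35.3 and 36.6 with siPDIA5. At 96 h the values were 57.3, 47.0 and 53.7 in siNC, 38.6, 41.3 and 37.6 with siPDIA1, and 42.0, 37.8 and 37.4 with siPDIA5. Neither siRNA overlapped siNC at either time. It fell by 0.42 with both siRNAs at 96 h (SE 0.07, adjusted p 8.81e-05 for siPDIA1 and 5.84e-05 for siPDIA5, limma) and by 0.29 with siPDIA5 at 48 h (adjusted p 0.00214, or 0.0576 after median centring). In siNC itself PSMD13 rose by 0.29 from 48 h to 96 h (adjusted p 0.00504).

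PSMD5, a chaperone that helps assemble the base of the cap and leaves before the proteasome is complete, went the other way. It was at 4.97, 4.34 and 4.26 RPKM in siNC at 48 h, 5.92, 5.24 and 5.74 with siPDIA1, and 6.19, 5.85 and 5.04 with siPDIA5. By 96 h its levels were 3.15, 3.59 and 2.87 in siNC, 4.66, 5.56 and 5.07 with siPDIA1, and 4.42, 4.84 and 5.59 with siPDIA5. Every knockdown library lay above every siNC library of its time. PSMD5 rose by 0.54 (SE 0.09) with siPDIA1 and 0.50 (SE 0.09) with siPDIA5 at 96 h (adjusted p 0.000194 and 0.000284, limma), to 159% and 155% of the siNC mean. At 48 h the values were 0.27 and 0.28 (adjusted p 0.0378 and 0.0234); these calls were lost under 6 and 5 of 13 alternatives, among them no filter on low genes (adjusted p 0.112 and 0.0709) and leaving out siNC replicate 2 (0.104 and 0.0719) or 3 (0.119 and 0.0819). In siNC, PSMD5 fell by 0.40 from 48 h to 96 h (adjusted p 0.00646), and the difference of the siRNA effect between the times did not pass the test (adjusted p 0.285 for siPDIA1 and 0.262 for siPDIA5). The other base chaperones among the members gave other values. PSMD10 was called lower in 3 comparisons with siNC. One was siPDIA5 at 48 h (-0.28, adjusted p 0.00203, or 0.0567 after median centring, limma). The others were both siRNAs at 96 h, where the calls were lost under most alternatives. PSMD9, uncertain for its shared exons, was called in no comparison with siNC.

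**Figure D3:**
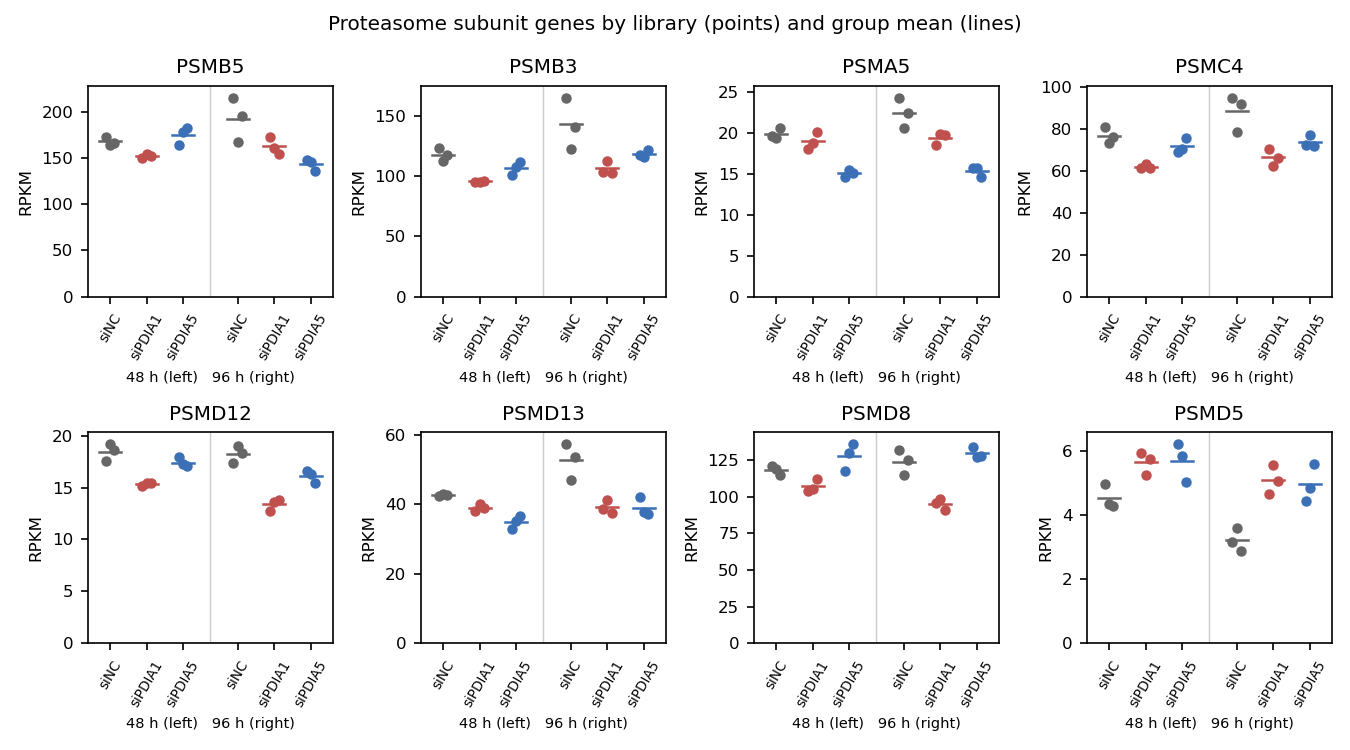
RPKM per library (points) and group mean (lines) of 8 proteasome subunit genes, with 3 libraries per group, 48 h on the left and 96 h on the right of each panel, and axes that start at 0. PSMB3, PSMC4 and PSMD12 lie below siNC in every siPDIA1 library, PSMD8 is low with siPDIA1 and not with siPDIA5 at 96 h, PSMA5 is lowest with siPDIA5, and PSMD5 is above siNC with both.

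The 2 siRNAs were also compared directly, with no shared control in the comparison. At 48 h, 9 members were lower and 3 higher with siPDIA1 than with siPDIA5 (35.3%), against 41.2% of all tested genes called (26.3% higher, 14.9% lower), with a median of -0.07 against 0.08. After median centring the split was 1 higher and 14 lower, beside 17.5% of all tested genes higher and 22.7% lower. With quantile normalization it was 6 higher and 9 lower, beside 19.5% and 19.2%. At 96 h, 5 members were lower and 2 higher (20.6%), against 48.5% of all tested genes (27.7% higher, 20.9% lower), with medians of -0.00 and 0.04; the split was 1 and 5 after median centring (26.1% and 21.9% of all tested genes) and 3 and 9 with quantile normalization (27.1% and 22.5%).

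PSMD8, a lid subunit, was the member with the smallest adjusted p in the direct comparison at 96 h. It was at 121, 119 and 115 RPKM in siNC at 48 h, 104, 105 and 112 with siPDIA1, and 118, 129.5 and 136 with siPDIA5. At 96 h it was at 132, 114 and 125 in siNC, 95.8, 98.3 and 91.2 with siPDIA1, and 134, 127 and 128 with siPDIA5. The siPDIA1 libraries lay below all siPDIA5 libraries at both times. PSMD8 was lower with siPDIA1 than with siPDIA5 by 0.25 at 48 h and 0.44 at 96 h on the log2 scale (log2 fold changes -0.25 and -0.44, SE 0.06, adjusted p 0.00259 and 1.18e-05, limma). Against siNC it fell with siPDIA1 at 96 h (-0.37, adjusted p 7.28e-05), and with siPDIA5 its values were 0.11 and 0.07 (adjusted p 0.147 and 0.349).

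PSMA5, an alpha ring subunit, showed the opposite order. It was at 19.6, 19.4 and 20.6 RPKM in siNC at 48 h, 18.005, 18.8 and 20.04 with siPDIA1, and 14.6, 15.4 and 15.1 with siPDIA5. At 96 h the values were 24.3, 20.6 and 22.4 in siNC, 18.5, 19.9 and 19.7 with siPDIA1, and 15.7, 15.7 and 14.6 with siPDIA5. The siPDIA5 libraries lay below all others at each time. It was higher with siPDIA1 than with siPDIA5 by 0.31 at 48 h and 0.32 at 96 h (SE 0.06, adjusted p 0.000472 and 0.000294, limma). Against siNC, PSMA5 fell with siPDIA5 by 0.38 and 0.52 (adjusted p 6.83e-05 and 1.9e-06), to 75.7% and 68.4% of the siNC mean, and these calls held under all 14 alternatives. With siPDIA1 at 96 h it fell by 0.20 (adjusted p 0.0112, or 0.0602 without siNC replicate 1, 0.0537 without siPDIA1 replicate 1 and 0.0711 with only those groups in the fit).

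PSMD12 and PSMD11 were lower with siPDIA1 than with siPDIA5 at both times. The log2 fold changes were -0.17 and -0.25 for PSMD12 (adjusted p 0.00941 and 0.000435) and -0.28 and -0.14 for PSMD11 (adjusted p 0.000552 and 0.0461, limma), and the last was lost under 9 of 14 alternatives, with adjusted p 0.241 without siPDIA1 replicate 1. PSMD6 was lower with siPDIA1 at 48 h (-0.33, adjusted p 0.000662), where its value at 96 h was -0.14 (adjusted p 0.0867). PSMD2, the large base subunit that receives substrates, was lower with siPDIA1 at 48 h (-0.21, adjusted p 0.00153), with 0.04 at 96 h (adjusted p 0.54).

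The effect of siPDIA1 did not differ between 48 h and 96 h for any of the 34 members at an adjusted p of 0.05 (limma; 3 members had an unadjusted p under 0.05), against 5.47% of all tested genes called (2.50% higher, 2.97% lower). Without siNC replicate 2 of 96 h, 2 members were called, beside 7.06% of all tested genes. For siPDIA5, 5 of 34 members differed between the times (14.7%), against 18.3% of all tested genes (9.22% higher, 9.09% lower). PSMB5, PSMD2, PSMD3 and PSMD11 stood lower against siNC at 96 h than at 48 h, and PSMA1 stood higher. Without siNC replicate 2 of 96 h, 9 members differed, 8 of them lower (26.5%, against 23.1% of all tested genes).

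PSMB5, which bears the chymotrypsin-like site and is the main target of bortezomib, was at 173, 164 and 166 RPKM in siNC at 48 h and at 164, 178 and 183 with siPDIA5. Its levels at 96 h were 215, 167 and 195 in siNC, 172, 161 and 154 with siPDIA1, and 148, 146 and 136 with siPDIA5. The siPDIA5 libraries overlapped siNC at 48 h and lay below it at 96 h, where siPDIA1 overlapped siNC. The log2 fold change with siPDIA5 was 0.06 at 48 h (adjusted p 0.549) and -0.42 at 96 h (adjusted p 0.000156), a difference of -0.47 (SE 0.10, adjusted p 0.00443, limma). With siPDIA1 at 96 h PSMB5 fell by 0.24 (adjusted p 0.0139), a call lost without siNC replicate 1 (adjusted p 0.078), without siPDIA1 replicate 3 (0.0604) or with only those groups in the fit (0.106). PSMB6, which bears the caspase-like site, fell with siPDIA5 by 0.25 at 48 h and 0.36 at 96 h (adjusted p 0.0214 and 0.00157); the 48 h call was lost under 4 of 14 alternatives, with adjusted p 0.226 after median centring. For PSMB7, which bears the trypsin-like site, no comparison with siNC passed, and values were -0.18 (siPDIA1 at 96 h, adjusted p 0.0508) to 0.02.

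PSMD11, a lid subunit tied to high proteasome activity in stem cells, was at 21.9, 20.7 and 20.9 RPKM in siNC at 48 h and at 25.2, 25.02 and 24.8 with siPDIA5. At 96 h it was at 18.8, 20.1 and 19.6 in siNC, 15.4, 17.1 and 17.6 with siPDIA1, and 18.3, 18.04 and 19.0 with siPDIA5. It lay above siNC in all 3 siPDIA5 libraries at 48 h and overlapped siNC at 96 h. The siPDIA5 effect was 0.23 at 48 h (adjusted p 0.00236) and -0.08 at 96 h (adjusted p 0.263), a difference of -0.30 (adjusted p 0.0108, limma). PSMD2 went from 0.16 to -0.21, a difference of -0.37 (SE 0.06, adjusted p 0.00111). PSMA1, uncertain for its shared exons, went from -0.40 to 0.33, a difference of 0.73 (SE 0.17, adjusted p 0.00683); its calls at 48 h and 96 h were lost under 2 and 4 of 13 alternatives.

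In siNC alone, 4 members were higher and 3 lower at 96 h than at 48 h (20.6%), against 24.3% of all tested genes (11.0% higher, 13.3% lower), with a median of 0.06 against -0.02. After median centring 5 were higher and 2 lower, beside 12.3% and 11.6% of all tested genes. PSMB3, PSMB4, PSMC4 and PSMD13 rose and PSMB2, PSMD1 and PSMD5 fell. The calls were lost under 10 of 14 alternatives for PSMB2, 8 for PSMC4 and 6 for PSMB3, and with only those groups in the fit for PSMB4, PSMD1 and PSMD13. One library bears on all results at 96 h: in siNC replicate 2 of 96 h, 27 of the 34 members lay below the siNC mean of their time, with a median of -0.10 on the log2 scale, where the median of all tested genes was 0.01. Without it 10 members rose and 2 fell with time in siNC (35.3% called, against 33.2% of all tested genes). At 96 h siPDIA1 then gave 1 rise and 17 falls (20.1% of all tested genes higher and 24.3% lower) and siPDIA5 3 rises and 16 falls (21.2% and 28.98%). The medians of the members were then -0.15 for siPDIA1 and -0.14 for siPDIA5, beside -0.03 and -0.05 over all tested genes.

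A second library stood apart: siPDIA1 replicate 1 of 96 h was farthest of all 18 from its group mean (root mean square of 0.247 on the log2 scale over all tested genes). PSMA6 was at 5.62 RPKM in it, against 1.61 and 1.49 in the other 2 libraries of its group, and its group value of 0.55 was not called (adjusted p 0.0958). Without this library, 1 member rose and 11 fell with siPDIA1 at 96 h (35.3% called, against 40.3% of all tested genes).

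The inducible subunits were low throughout. PSMB10, the only 1 tested, was called against siNC in the main fit only with siPDIA5 at 96 h. PSMB10 was at 1.51, 1.77 and 2.54 RPKM in siNC at 48 h and 2.22, 3.16 and 2.02 with siPDIA5. The levels at 96 h were 2.55, 2.53 and 2.16 in siNC, 3.06, 2.71 and 2.95 with siPDIA1, and 5.13, 4.35 and 4.56 with siPDIA5. All 3 siPDIA5 libraries at 96 h lay above every other library. PSMB10 rose by 0.73 with siPDIA5 at 96 h (SE 0.13, adjusted p 0.000182, limma), to 194% of the siNC mean, and was lower with siPDIA1 than with siPDIA5 at that time (-0.54, adjusted p 0.00267). Its exons are shared with another gene on the same strand, so the value is uncertain as to which gene the reads came from.

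PSMB8 and PSMB9 were under the filter. The estimated reads of PSMB8 at 48 h were 1, 5 and 11 in siNC, 28, 7 and 37 with siPDIA1, and 21, 32 and 0 with siPDIA5. At 96 h they were 36, 32 and 29 in siNC, 53, 45 and 46 with siPDIA1, and 65, 69 and 79 with siPDIA5. In RPKM the siNC libraries of 96 h were at 0.320, 0.259 and 0.248, those of siPDIA1 at 0.369, 0.347 and 0.354, and those of siPDIA5 at 0.433, 0.626 and 0.626, with no overlap between the 3 groups. With no filter on low genes, PSMB8 with siPDIA5 at 96 h had an adjusted p of 0.0463 (limma) and a log2 fold change of 0.29 on the log2(RPKM + 1) scale. PSMB9 was at 0.529, 0.541 and 0.428 RPKM in siNC at 96 h and at 0.826, 0.520 and 0.669 with siPDIA5, which overlapped (adjusted p 0.583).

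Set against their constitutive partners, the inducible subunits stayed a small part of each pair. PSMB10 made up 2.14% to 2.73% of the RPKM of PSMB10 and PSMB7 together in siNC at 96 h, 2.92% to 3.61% with siPDIA1 and 4.62% to 5.65% with siPDIA5. PSMB8 made up 0.127% to 0.155% of its pair with PSMB5 in siNC at 96 h, 0.214% to 0.229% with siPDIA1 and 0.291% to 0.458% with siPDIA5. PSMB9 made up 0.373% to 0.567% of its pair with PSMB6 in siNC at 96 h, 0.241% to 0.472% with siPDIA1 and 0.598% to 0.935% with siPDIA5. With siPDIA5 at 96 h the log2 ratio of inducible to constitutive subunit was higher than in siNC by 1.10 for PSMB10, 1.43 for PSMB8 and 0.77 for PSMB9. With a pseudocount of 1 in each RPKM these were 0.88, 0.70 and 0.51. Each difference without a pseudocount had an exact two-sided permutation p of 0.1, the smallest that 3 against 3 libraries allow, so no ratio could pass 0.05. At 48 h the log2 ratio of PSMB8 to PSMB5 was higher with siPDIA1 than in siNC by 2.35 (exact permutation p 0.2). With the pseudocount this was 0.30. In siPDIA5 replicate 3 of 48 h PSMB8 was at 0, so no difference was formed for that group. The leukocyte markers, which would mark cells that use these subunits, were near the floor in all groups. They summed to 0.0874 to 0.473 RPKM in the siPDIA5 libraries of 96 h and 0.0188 to 0.0965 in siNC at 96 h. The sums were 0.170 to 0.280 with siPDIA1 at 96 h and 0.151 to 0.381 in siNC at 48 h.

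**Figure D4:**
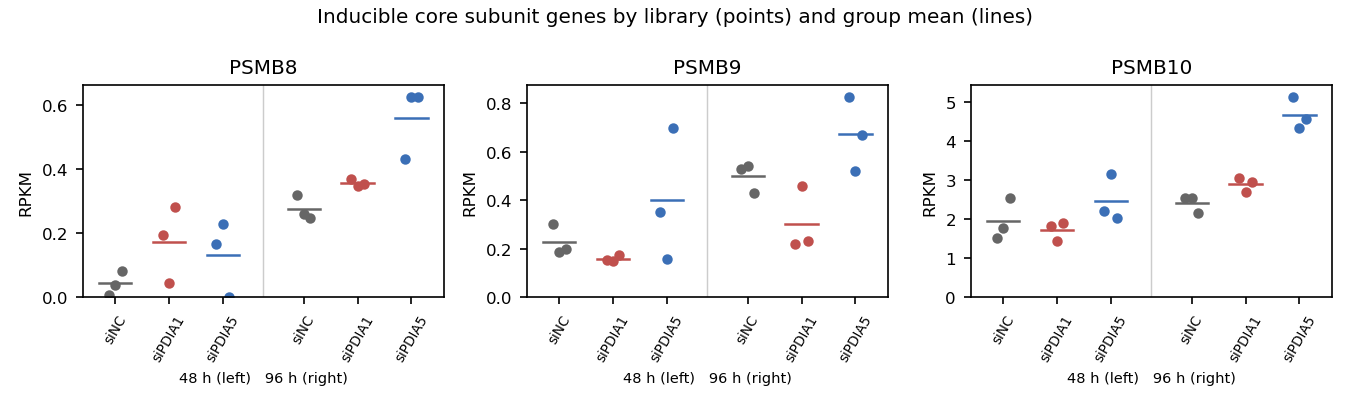
RPKM per library (points) and group mean (lines) of the inducible core subunit genes, 3 libraries per group, with axes that start at 0. PSMB8 and PSMB9 stay under 1 RPKM in all libraries, and PSMB10 is at 4.35 to 5.13 with siPDIA5 at 96 h, above every other library.

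Genes known to be induced together with the immunoproteasome were counted beside it. Of 13 such genes for interferon signalling and peptide loading, 9 were tested, and 4 rose and 1 fell with siPDIA5 at 96 h, 5 rose and 1 fell with siPDIA5 at 48 h, 2 rose and 1 fell with siPDIA1 at 96 h, and 1 rose with siPDIA1 at 48 h. These shares called were 55.6%, 66.7%, 33.3% and 11.1%, against 51.1%, 45.8%, 45.3% and 33.4% of all tested genes. ERAP1, which trims peptides in the ER, rose in all 4 comparisons (log2 fold changes of 0.61 and 0.80 with siPDIA1 and 0.93 and 1.40 with siPDIA5, at 48 h and 96 h). HLA-B, a class I molecule, was at 18.5, 14.7 and 17.2 RPKM in siNC at 96 h and at 26.9, 27.6 and 27.0 with siPDIA5, and rose by 0.67 (adjusted p 1.63e-05, limma). TAP1 and TAP2, the peptide transporter, passed no comparison with siNC.

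The genes that build, regulate and feed the proteasome were listed as 30 partners, all tested. With siPDIA1, 4 rose and 4 fell at 48 h and 7 rose and 7 fell at 96 h; with siPDIA5, 4 rose and 7 fell at 48 h and 6 rose and 12 fell at 96 h. The shares called were 26.7%, 46.7%, 36.7% and 60%, in that order, against 33.4%, 45.3%, 45.8% and 51.1% of all tested genes. Their medians were -0.06, 0.00, 0.00 and -0.14, beside -0.01, -0.03, -0.09 and -0.06 over all tested genes.

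NFE2L1, the transcription factor of the proteasome genes, was at 45.2, 45.9 and 46.7 RPKM in siNC at 48 h, 69.9, 71.6 and 70.2 with siPDIA1, and 96.1, 99.0 and 89.2 with siPDIA5. At 96 h it was at 45.8, 52.8 and 52.6 in siNC, 75.0, 76.7 and 79.6 with siPDIA1, and 132, 143 and 138 with siPDIA5. The 3 siRNA groups did not overlap at either time. NFE2L1 rose by 0.61 with siPDIA1 at both times (SE 0.05, adjusted p 4.18e-07 and 2.42e-07, limma) and by 1.03 and 1.44 with siPDIA5 (adjusted p 7e-10 and 7.68e-12). It was lower with siPDIA1 than with siPDIA5 at both times (-0.42 and -0.83, adjusted p 1.6e-05 and 5.72e-09), and the siPDIA5 effect was larger at 96 h by 0.41 (adjusted p 0.00169). RNA does not show how much NFE2L1 protein was processed.

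DDI2, the protease that cuts NFE2L1 into its active form, rose in all 4 comparisons, by 0.43 and 0.41 with siPDIA1 and 0.61 and 0.48 with siPDIA5 at 48 h and 96 h (adjusted p 0.019, 0.0175, 0.00129 and 0.00635, limma). NGLY1, which removes sugars from NFE2L1 before that cut, passed none, with values of -0.14 to -0.11.

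Receptors that bring ubiquitin chains to the proteasome also differed. UBQLN2, a shuttle for ubiquitinated proteins, was at 37.4, 40.3 and 38.5 RPKM in siNC at 48 h, 31.1, 33.2 and 29.1 with siPDIA1, and 29.7, 30.5 and 26.1 with siPDIA5. The 96 h values were 27.9, 35.5 and 31.1 in siNC, 23.05, 21.6 and 22.02 with siPDIA1, and 24.7, 25.3 and 24.6 with siPDIA5. All knockdown libraries lay below the siNC libraries of their time. UBQLN2 fell in all 4 comparisons, by 0.31 and 0.48 with siPDIA1 and 0.42 and 0.32 with siPDIA5 (SE 0.08, adjusted p 0.00471, 8.41e-05, 0.00028 and 0.00197, limma). ADRM1, a ubiquitin receptor in the cap, fell with siPDIA1 by 0.21 and 0.32 (adjusted p 0.00443 and 0.000104), and its values with siPDIA5 were 0.01 and -0.05; the direct comparison passed at both times (-0.22 and -0.27, adjusted p 0.00285 and 0.000373).

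USP14, the enzyme on the cap that trims ubiquitin chains, fell in every comparison with siNC. It was at 34.5, 35.5 and 34.1 RPKM in siNC at 48 h, 24.7, 24.1 and 24.5 with siPDIA1, and 22.9, 22.9 and 20.7 with siPDIA5. Its 96 h levels were 26.7, 29.9 and 26.3 in siNC, 16.96, 18.9 and 17.6 with siPDIA1, and 17.5, 18.4 and 17.2 with siPDIA5. All knockdown libraries lay below all siNC libraries of their time. The falls were 0.49 and 0.61 with siPDIA1 and 0.63 and 0.62 with siPDIA5 (SE 0.06, adjusted p 5.64e-06, 3.26e-07, 2.44e-07 and 1.73e-07, limma), each larger in size than the fall of any subunit gene in the same comparison.

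Of the assembly factors and activators, PSMG3, a chaperone of the alpha ring, was at 39.8, 31.7 and 34.9 RPKM in siNC at 96 h, 28.9, 28.3 and 26.0 with siPDIA1, and 18.4, 21.5 and 21.3 with siPDIA5. It fell by 0.34 with siPDIA1 and 0.77 with siPDIA5 at 96 h (adjusted p 0.0106 and 8.53e-06, limma) and was higher with siPDIA1 than with siPDIA5 (0.43, adjusted p 0.00216). PAAF1, a chaperone of the base, fell with siPDIA5 by 0.59 and 0.53 and had values of -0.06 and 0.07 with siPDIA1. POMP, which matures the core, passed no comparison. PSME3, the nuclear activator PA28-gamma, fell with siPDIA1 by 0.25 and 0.34 and with siPDIA5 at 96 h by 0.45 (adjusted p 3.33e-06), after 0.10 at 48 h (adjusted p 0.144). PSME1, a subunit of the activator induced by interferon, rose by 0.54 from 48 h to 96 h in siNC (adjusted p 0.000127) and fell with siPDIA5 at 96 h by 0.22 (adjusted p 0.0206).

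**Figure D5:**
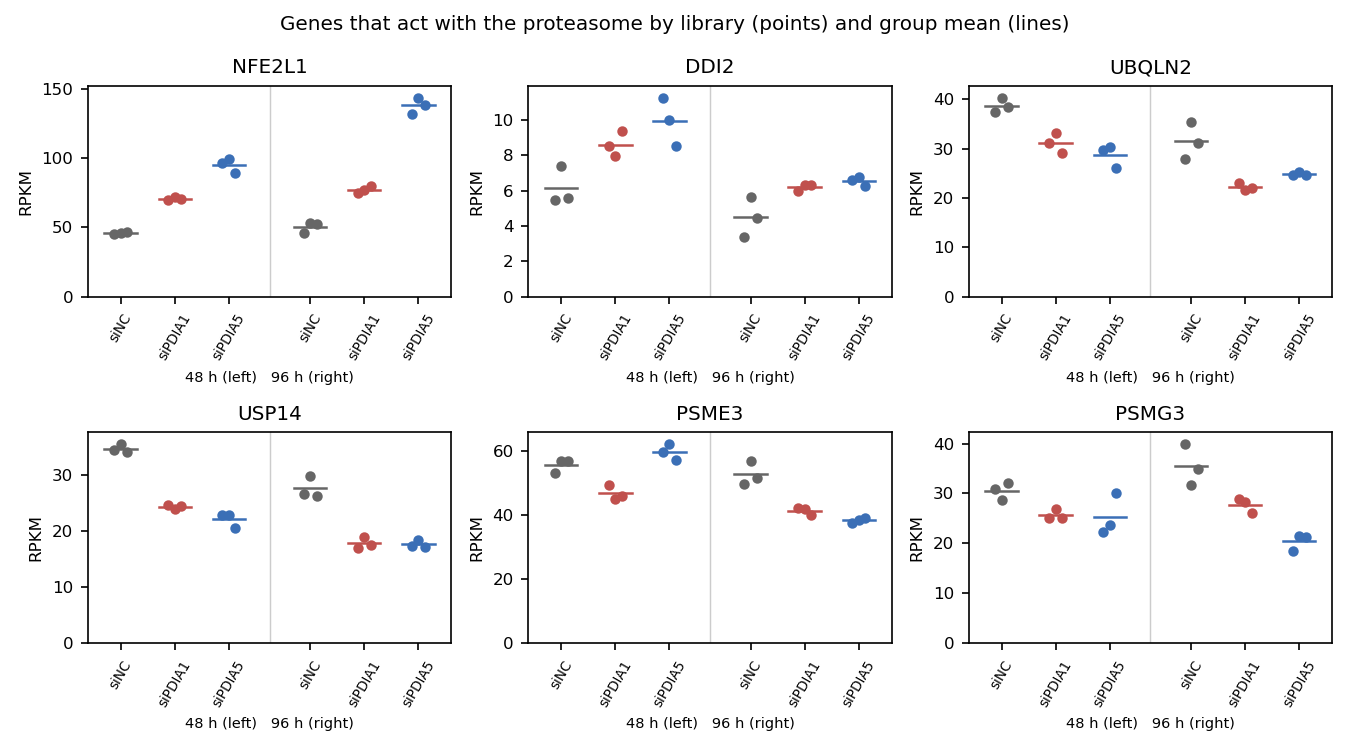
RPKM per library (points) and group mean (lines) of 6 genes that act with the proteasome, 3 libraries per group, with axes that start at 0. NFE2L1 is highest with siPDIA5 and next with siPDIA1 at both times, DDI2 lies above siNC and USP14 and UBQLN2 below it with either siRNA, and PSMG3 is lowest with siPDIA5 at 96 h.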

How the data were processed

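RPKM per gene in 18 libraries came from the table that the authors deposited. Tools and builds listed in the submitters' processing notes, without roles, are R 3.4.1, DESeq2, featureCounts, STAR 2.7.0f, cutadapt 1.8, hg38 and GRCh38. The annotation release, strand setting and counting of shared reads were not given in the sources used here. Libraries were stranded and polyA-selected, per the labels' protocols. Depth was estimated from the steps between low values (99.7% to 99.9% whole within 0.1 read) and used in no test. Genes averaging 1 RPKM or more were fitted as log2(RPKM + 1) over all 18 libraries with a mean per group (limma 3.58.1, R 4.3.3, empirical Bayes with trend), with Benjamini-Hochberg adjustment over the 11685 tested genes in each of 9 comparisons; the fit was tested on simulated data. Ratios used exact permutation tests (scipy 1.17.1). Exon overlaps are from GENCODE 29; none of the 39 identifiers had the same version there. Named were, per comparison, the up to 4 called members with the largest rise and fall among non-overlapping groups, up to 3 partners by smallest adjusted p, and PSMB5 to PSMB10, PSMA8 and PSMB11; PSMA4, PSMA6, DDI2, NGLY1, UBQLN2, ADRM1, POMP and other members and partners outside this rule were chosen after their values were seen. The members and lists were chosen with earlier results of these data known. Same-numbered libraries did not pair. Alternatives were another pseudocount (0.25), no filter, a filter of 5, median centring, quantile normalization, the replicate block, only the groups compared, no trend, each library left out and, added after seeing the data, without the members that share coding sequence. Some listed genes are counted but not reported here by name.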

Additional observations from a re-analysis of the deposited data

Results flagged for a closer look

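The effect of siPDIA5 differed between 96 h and 48 h for 5 of 34 members (14.7%), against 18.3% of all tested genes. The test was of the difference itself (limma, adjusted p under 0.05 over all tested genes). Of the 30 partners, 2 stood higher against siNC at 96 h than at 48 h and 4 lower. Of the 9 tested genes for interferon signalling and peptide loading, 2 stood higher and 0 lower. The 11 genes named below are these members and a selection of the called listed genes, not all of them. The difference of the log2 fold changes, 96 h minus 48 h, was -0.47 for PSMB5, -0.37 for PSMD2, -0.3 for PSMD11 and -0.2 for PSMD3. It was 0.73 for PSMA1, whose exons are shared with another gene, with a rise at 96 h read highest in siPDIA5 replicate 1 (7.37 RPKM against 5.98 and 5.71). The PSMD3 call was lost with quantile normalization (adjusted p 0.416), with only those groups in the fit (0.0647) and without siNC replicate 3 of 48 h (0.0536). Among the partners it was 0.41 for NFE2L1, -0.54 for PSME3 and -0.34 for VCP, the ATPase that draws proteins out of the ER membrane, which went from 0.18 at 48 h to -0.16 at 96 h. It was -0.5 for PSMG3, -0.37 for PSME1 and 0.47 for ERAP1 (adjusted p 0.022, 0.0225 and 0.0267). At both times the siPDIA5 libraries were compared with siNC libraries of that time, and siNC replicate 2 of 96 h read low for the members.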

How the results depend on the processing

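The counts of called members moved by over 1.5 times in a few settings. With only the groups compared in the fit, siPDIA1 gave 11 members at 48 h (7 in the fit of all groups) and 9 at 96 h (15), and siNC over time gave 1 (7). Over all tested genes this setting called 1913 higher and 2217 lower for siPDIA1 at 48 h (1866 and 2031 in the fit of all groups). It called 1886 and 2366 at 96 h (2344 and 2950), and 542 and 543 for siNC over time (1285 and 1554). With no filter, siPDIA1 against siPDIA5 at 48 h gave 7 (12) and siNC over time 4 (7). Over the 39231 genes of that fit the former called 2737 higher and 1513 lower (3070 and 1743 with the filter). The latter called 948 and 1004 (1285 and 1554). With quantile normalization, siPDIA1 against siPDIA5 at 96 h gave 12 (7) and the siPDIA1 effect over time 1 (0). Over all tested genes the former then called 3161 higher and 2633 lower (3234 and 2438 in the main fit). The latter called 411 and 351 (292 and 347). Leaving out each library in turn gave 5 to 7 members for siPDIA1 at 48 h, 10 to 18 at 96 h, 7 to 9 for siPDIA5 at 48 h and 14 to 19 at 96 h. It gave 7 to 10 for siPDIA1 against siPDIA5 at 48 h (7 without siPDIA1 replicate 1) and 5 to 8 at 96 h, 0 to 2 for the siPDIA1 effect over time, 4 to 9 for the siPDIA5 effect and 4 to 12 for siNC over time (4 without siNC replicate 2 or 3 of 48 h or replicate 3 of 96 h, 12 without replicate 2 of 96 h). Over all tested genes these fits called 1542 to 1658 higher and 1646 to 1752 lower for siPDIA1 at 48 h. At 96 h they called 2064 to 2345 and 2534 to 2845. For siPDIA5 the counts were 1721 to 1863 and 2988 to 3173 at 48 h, and 2166 to 2473 and 3108 to 3386 at 96 h. For siPDIA1 against siPDIA5 they were 2592 to 2800 and 1494 to 1655 at 48 h. At 96 h that comparison gave 2792 to 2942 and 2143 to 2248. The siPDIA1 effect over time gave 199 to 347 and 229 to 478, and the siPDIA5 effect 834 to 1398 and 838 to 1305. For siNC over time the counts were 801 to 1692 and 854 to 2190. The replicate numbers did not pair the libraries (median correlation of same-numbered deviations 0.01, 9 of 18 libraries best with their own number). With the replicate block the members called in the order of the report were 6, 16, 8, 18, 10, 6, 0, 5 and 6. Over all tested genes the block called 1792, 2318, 1916, 2401, 3040, 3194, 267, 1009 and 1263 higher, in that order. It called 1980, 2897, 3362, 3497, 1717, 2391, 323, 999 and 1459 lower. For the ratios with a pseudocount of 1 in each RPKM, the differences turned to 0.045 (PSMB9 to PSMB6, siPDIA1 at 48 h), 0.057 (the same at 96 h) and 0.021 (PSMB10 to PSMB7, siPDIA1 at 48 h). Leaving out a library gave differences of -0.20 to 0.19 for PSMB10 to PSMB7 with siPDIA1 at 48 h, which was 0.08 without siPDIA1 replicate 2 and 0.19 without siNC replicate 3. The causes were not tested. Over the fold changes of single genes, 4735 kept direction and call, 174 lost the call and 89 gained one. Members under 1 RPKM are limited by depth.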
